A study of Mus musculus with 6 samples.

Results

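Gasdermins are pore-forming proteins that lyse a cell once a protease has cut them, and inflammasomes are the cytosolic assemblies that switch on 1 of those proteases, caspase-1. The 10 genes followed here are 3 gasdermin A genes (Gsdma, Gsdma2 and Gsdma3), 3 gasdermin C genes (Gsdmc, Gsdmc2 and Gsdmc3), the NLRP3 inflammasome with its sensor Nlrp3, its adaptor Pycard and its protease Casp1, and the bacterial peptidoglycan receptor Nod2. They were found by gene symbol, and all 10 listed symbols were present among the 23951 genes of the expression table. Whole skin of 3 JunBΔep mice was compared with whole skin of 3 control mice by RNA sequencing of poly(A) RNA. JunBΔep mice (labelled JunB dep) lack JunB, a subunit of the AP-1 transcription factor, in cells that express keratin 5, through a Cre transgene under the keratin 5 promoter, and the skin was taken from lesions. The controls were labelled JunB +/+ and were littermates. All 6 mice were of the C57Bl/6 strain and 6 to 7 months old. Levels are given in FPKM, which counts fragments relative to transcript length and to library size, as the authors deposited them. That unit eases comparison between genes and between mice but does not ensure it. Summed FPKM ranged from 481078 to 630363 between the libraries, and the division of reads between similar genes is unknown.

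In skin, Gsdma is known from differentiating keratinocytes and hair follicles, a protease of streptococci can cut and activate its human counterpart, and dominant mutations of Gsdma3 cause hair loss in mice. Gasdermin C proteins can be cut by caspase-8, and Gsdmc2 and Gsdmc3 are known from the gut epithelium in the type 2 response to worms. NLRP3 assembles with the adaptor ASC (encoded by Pycard) and caspase-1 on danger signals, and caspase-1 then matures IL-1β and IL-18 and cuts gasdermin D. NOD2 binds muramyl dipeptide, a fragment of the bacterial cell wall, and signals through RIPK2 to NF-κB, apart from the inflammasome.

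Of the 10 genes, Gsdmc, Gsdmc2 and Nod2 were higher in each JunBΔep mouse than in any control, as were 5.62% of all genes tested, and Gsdmc and Gsdmc2 entered the test only through their JunBΔep values. Gsdmc and Gsdmc2 were under 0.1 FPKM in each control mouse and between 0.555 and 132.7 FPKM in the JunBΔep mice. Nod2 was at 2.61 to 3.30 FPKM in controls against 3.62 to 22.4 FPKM in the JunBΔep group. Gsdma, at 20.7 to 78.2 FPKM, was the most abundant gasdermin of the 6 in each mouse except the one with 132.7 FPKM of Gsdmc, and its groups overlapped. Nlrp3 and Pycard stood above the controls in 1 JunBΔep mouse alone, and the groups of Casp1 overlapped, with 1 JunBΔep mouse above the controls. None of these differences passed the test across all genes.

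1 library stood apart from the rest. Values of a group are listed in the order of its replicates 0, 1 and 2. Junb, the deleted gene, measured 59.3, 72.4 and 56.9 FPKM across the controls. The libraries labelled JunBΔep gave 129.6, 42.8 and 28.1 FPKM, so that the first of them exceeded all controls. The label of that library is thus not borne out by its Junb level, although whole skin also holds cells that keep the gene. The same library had 3842 FPKM over 7 markers of mucosal epithelium, where the other 5 had 25.4 to 56.5 FPKM. It was the highest of the 6 mice for 5 of the 7 markers (Krt13, Krt4 and others). Krt78, which gave 23.8 to 54.2 FPKM of the sum in the other 5, was at 43.2 FPKM in it, within the controls. Krt6b, the basal keratin Krt14 and the hair follicle keratins Krt75 and Krt85 were listed at 0 in that library alone. A listed 0 can be a failed estimate, and Krt5, the keratin that pairs with Krt14, was at 3725 FPKM there, the highest of the 6 mice. Fold changes are therefore given with and without the library labelled JunBΔep 0, and mice 0, 1 and 2 of the JunBΔep group stand for the libraries that carry those labels. Xist, which is expressed in female cells, was at 27.6 to 34.2 FPKM in control mouse 1 and JunBΔep mice 1 and 2 and under 0.03 FPKM in the other 3, so that the library labelled JunBΔep 0 was the sole JunBΔep library without it. Keratinocytes were present in each sample, with 3801 to 6538 FPKM over 6 basal markers and 7926 to 16120 FPKM over 7 markers of differentiation. The basal markers did not move together in the library labelled JunBΔep 0, where Krt5 gave 3725 of 4030 FPKM. Krt15 and Col17a1, at 80.7 and 92.3 FPKM, were below all controls there (1117 to 2388 and 188 to 274.5 FPKM). Trp63 and Itga6, at 64.8 and 67.0 FPKM, were above all controls. Markers of skeletal muscle summed to 15730 to 20510 FPKM in controls and to 1514 to 3757 FPKM in JunBΔep mice. Of these 10 markers, 7 were called lower (limma adjusted p below 0.05), against 1.38% of all genes called. Such calls depended on the mice included, since 0 genes were called when any control or JunBΔep mouse 1 was left out. Markers of dendritic and Langerhans cells summed to 764 to 1227 FPKM in the controls and at most 615 FPKM in the JunBΔep group. Cd74 gave most of each sum. It measured 241.8, 241.4 and 598.6 FPKM across the JunBΔep mice, and its lowest control value was 752.8 FPKM. Only 3 of the 6 markers were below all controls in all 3 JunBΔep mice, and 0 were called. The median log2 change of the 6 from the control mean was -0.46, -0.75 and -0.01 across the JunBΔep mice. In JunBΔep mouse 2 the list as a whole was thus near the control level. Adipocyte markers summed to 60.2 FPKM in the library labelled JunBΔep 0 and 1279 to 9945 FPKM in the other 5. The part of these differences in the results was not tested. Summed FPKM per library was 481078 to 630363, and the number of reads is unknown.

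The members were read from 1 limma fit of log2(FPKM + 0.5) over 17021 genes, those averaging 0.1 FPKM or more in the 6 mice, with Benjamini-Hochberg adjustment over all of them. 9 of the 10 members passed that filter and Gsdmc3 did not. Of the 9, 0 had an adjusted p below 0.05, where 235 of all genes tested (1.38%) did, every 1 of those 235 lower in JunBΔep. At an unadjusted p below 0.05, 243 of all genes were higher and 1044 lower, and 1 of the 9 members was among them, Gsdmc2. All 3 JunBΔep mice were above all 3 controls for 3 of the 9 members (Gsdmc, Gsdmc2 and Nod2), against 5.62% of all genes tested. All 3 were below the controls for 0 of the 9, against 9.16% of all genes. Gsdmc and Gsdmc2 passed the filter only through the mice in which they are high, so their place in that count was set by the filter, and Nod2 is the only member in it that would have passed on the controls alone. For a single gene, 0.1 is the smallest p that exact two-sided permutation of 3 mice against 3 allows. The replicates of a group were separate mice.

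**Figure D1:**
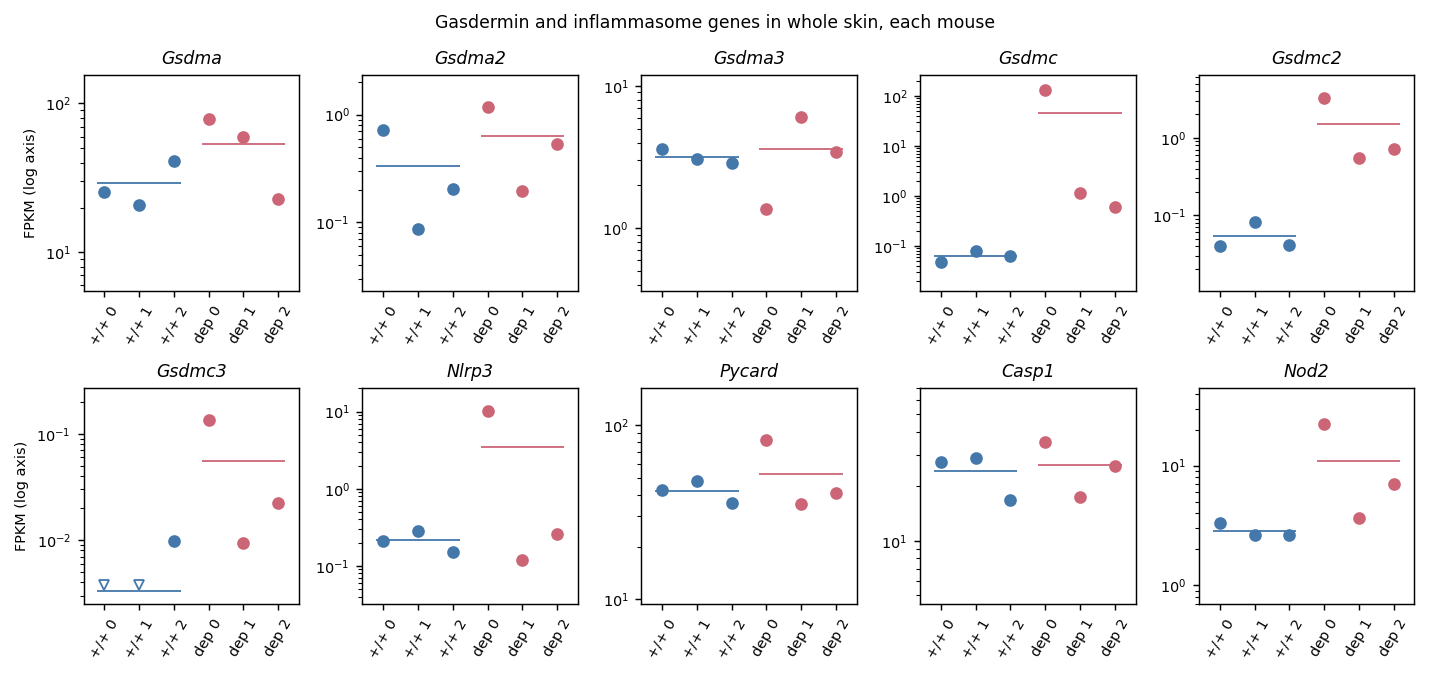
FPKM of the 10 genes in each of the 6 mice, on log axes that differ between panels (blue, JunB +/+ replicates 0 to 2; red, JunB dep replicates 0 to 2; horizontal lines, group means; open triangles at the lower edge, listed at 0). For Gsdmc, Gsdmc2 and Nod2 all 3 JunB dep mice lie above all 3 controls, and JunB dep replicate 0 is the highest of the 6 mice for each gene except Gsdma3.

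Because JunB acts by binding DNA, the promoter windows of the members are shown beside their values, as RefSeq gives them in its GRCm38.p6 table, from 250 bases before to 50 bases after the start. 6 of the 10 members had windows there, 7 in all since Nlrp3 has a pair of starts: Casp1, Gsdma3, Gsdmc3, Nlrp3, Nod2 and Pycard. Each window was found exactly once in the mm9 genome, and the coordinates are those of mm9. The window of Gsdmc3 lies upstream of that gene as the mm9 annotation places it, and is not shown. The AP-1 element TGANTCA and the cAMP response element TGACGTCA, to which dimers with JunB can bind, were searched on both strands, along with the NF-κB motif. The AP-1 element was in 0 of the 7 windows and in 7.81% of 32851 windows of all genes. The cAMP response element was in 0 of the 7 and in 1.79% of all. The NF-κB motif, present in 4.51% of all windows, occurred 1 time in Gsdma3 and 1 time in the first window of Nlrp3. The windows of the sensor with a motif, of the gasdermin A gene with a motif and of the peptidoglycan receptor follow, 5′ to 3′ on the strand of the gene, with the NF-κB match in capitals where there is one. Such a match is one of letters and shows no binding.
Nlrp3, chr11:59354821-59355120, + strand: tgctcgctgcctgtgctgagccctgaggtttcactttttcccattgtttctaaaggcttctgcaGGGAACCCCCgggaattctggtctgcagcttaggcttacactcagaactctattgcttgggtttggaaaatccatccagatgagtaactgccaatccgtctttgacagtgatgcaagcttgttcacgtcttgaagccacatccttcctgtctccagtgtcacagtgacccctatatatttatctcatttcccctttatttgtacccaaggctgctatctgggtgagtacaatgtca
Gsdma3, chr11:98487413-98487712, + strand: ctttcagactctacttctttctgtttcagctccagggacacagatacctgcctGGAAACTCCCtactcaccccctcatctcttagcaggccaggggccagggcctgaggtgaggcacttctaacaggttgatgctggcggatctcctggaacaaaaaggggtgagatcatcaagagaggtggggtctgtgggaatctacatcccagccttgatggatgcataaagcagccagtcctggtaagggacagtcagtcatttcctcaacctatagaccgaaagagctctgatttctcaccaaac
Nod2, chr8:91170996-91171295, + strand: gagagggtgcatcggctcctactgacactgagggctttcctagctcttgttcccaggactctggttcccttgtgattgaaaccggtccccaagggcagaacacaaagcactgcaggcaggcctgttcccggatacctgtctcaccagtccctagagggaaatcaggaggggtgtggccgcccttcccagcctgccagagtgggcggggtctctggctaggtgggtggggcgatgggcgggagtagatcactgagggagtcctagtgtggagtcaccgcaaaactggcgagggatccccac
Counted from the start, the match in Nlrp3 begins at -186 and that in Gsdma3 at -197. These 2 genes had unlike values: Nlrp3 was highest and Gsdma3 lowest in the library labelled JunBΔep 0.

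Gasdermin C was nearly silent in control skin. Gsdmc (chromosome 15, 63607526 to 63640314, minus strand) was at 0.0483, 0.0809 and 0.0621 FPKM across the controls. It was at 132.7, 1.14 and 0.612 FPKM across the JunBΔep mice. All 3 JunBΔep mice lay above every control, and the library labelled JunBΔep 0 lay far above the other 2. JunBΔep mice 1 and 2 were at 14.1 and 7.56 times the highest control, and the library labelled JunBΔep 0 at 1640 times. That library also had the high sum of mucosal markers, at 3842 FPKM. The sum was 25.4 and 42.4 FPKM in JunBΔep mice 1 and 2 and 29.55 to 56.5 FPKM in controls. The part of such tissue in the level of Gsdmc was not tested. The log2 fold change of Gsdmc was 3.47 (standard error, SE, 1.80, 95% interval -0.92 to 7.86, limma adjusted p = 0.722). The exact permutation p was 0.1, the smallest possible, for a gene that entered the test only through its JunBΔep values. Without the library labelled JunBΔep 0 the log2 fold change was 1.26 (SE 0.22, limma adjusted p = 0.108). The pseudocount of 0.5 shrinks the change of a gene this low, and on the FPKM scale the mean of JunBΔep mice 1 and 2 was 0.877 FPKM against a control mean of 0.0638 ± 0.0164 FPKM (SD, n = 3).

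Gsdmc2 (chromosome 15, 63655901 to 63667504, minus strand), a neighbouring copy, was at 0.0398, 0.0812 and 0.0407 FPKM across the controls. In JunBΔep replicates 0, 1 and 2 it was at 3.27, 0.555 and 0.714 FPKM. Again no JunBΔep mouse reached down to the controls, and the spread among the JunBΔep mice was much narrower than for Gsdmc. JunBΔep mice 1 and 2 stood at 6.84 and 8.80 times the highest control. The log2 fold change was 1.61 (SE 0.50, 95% interval 0.40 to 2.82, limma adjusted p = 0.405), with an exact permutation p of 0.1, for a gene that entered the test through its JunBΔep values. Leaving out the library labelled JunBΔep 0 gave 1.03 (SE 0.16, limma adjusted p = 0.078), the lowest adjusted p of any member in any setting tried. Gsdmc3 (chromosome 15, 63689826 to 63700852, minus strand) was listed at 0, 0 and 0.00987 FPKM across the controls and was at 0.136, 0.00941 and 0.0223 FPKM across the JunBΔep mice. Once the relative scaling of the libraries is taken out, the 4 values above 0 are 1, 13, 1 and 2 times the lowest of them, within 0.05 of whole numbers, as a gene with a handful of reads would give. It was not tested.

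The gasdermin C genes are hard to tell apart by reads. Over aligned coding sequence Gsdmc2 and Gsdmc3 were 97.1% identical, Gsdmc and Gsdmc2 82.8%, and Gsdmc and Gsdmc3 83.1%. Of all 50-base windows of their transcripts, 43% in Gsdmc2, 46.6% in Gsdmc3 and 16.4% in Gsdmc also occurred letter for letter in another gene. No source used here says how the authors' counting divided such reads between copies, so the split between Gsdmc2 and Gsdmc3 is uncertain. A sum over the copies depends less on it. Gsdmc, Gsdmc2 and Gsdmc3 together were at 0.0881, 0.162 and 0.113 FPKM across the controls and at 136.1, 1.71 and 1.35 FPKM across the JunBΔep mice. The log2 difference was 3.73 with an exact permutation p of 0.1, and 1.70 without the library labelled JunBΔep 0. Gsdmc and Gsdmc2, which make up most of this sum, passed the filter only through their JunBΔep values. Gsdmc gave 97.5% of the sum in the library labelled JunBΔep 0, 66.9% in replicate 1 and 45.4% in replicate 2. Of the other copies of the cluster, Gsdmc4 was between 0 and 0.0429 FPKM, and Gsdmcl1, Gsdmcl2 and Gsdmcl-ps were listed at 0 in all 6 mice. A listed 0 can be a failed estimate, and the read counts that would tell were not analysed here.

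Gasdermin A was expressed in control skin as well as in lesional skin. Gsdma (chromosome 11, 98525665 to 98539022, plus strand) was at 25.3, 20.7 and 41.4 FPKM across the controls, and at 78.2, 59.9 and 22.9 FPKM across the JunBΔep mice. JunBΔep mice 0 and 1 were above all controls, and JunBΔep mouse 2 lay among them. The means were 29.1 ± 10.8 and 53.7 ± 28.2 FPKM (SD, n = 3 each), a log2 fold change of 0.76 (SE 0.51, 95% interval -0.47 to 1.99, limma adjusted p = 0.722). It was 0.40 without the library labelled JunBΔep 0 and 1.28 without JunBΔep mouse 2 (limma adjusted p = 0.833 and 0.176). Hair follicle keratins differed between mice of the same genotype: 8 markers of the inner root sheath and companion layer summed to 3844 FPKM in control mouse 2, the control with the most Gsdma, and to 6433 FPKM in JunBΔep mouse 1, against 41.2 and 41.8 FPKM in control mice 0 and 1 and 326.5 and 131.9 FPKM in JunBΔep mice 0 and 2. Hair shaft markers (9 genes) followed the same split, at 1483 and 1929 FPKM in control mouse 2 and JunBΔep mouse 1 and at 7.85 to 92.6 FPKM in the rest. Their part in the values of Gsdma was not tested. In bulk skin, fewer cells of a type and less RNA per cell cannot be told apart.

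Gsdma3 (chromosome 11, 98487674 to 98499540, plus strand) was at 3.62, 3.07 and 2.86 FPKM across the controls. The JunBΔep mice held both the lowest and the highest value of the 6, with 1.36, 6.02 and 3.44 FPKM across replicates 0 to 2. The means, 3.18 ± 0.389 and 3.61 ± 2.33 FPKM (SD, n = 3 each), thus hid opposite deviations, and the log2 fold change was -0.01 (SE 0.47, limma adjusted p = 0.992). It was 0.47 without the library labelled JunBΔep 0. The JunBΔep mouse with the most Gsdma3, replicate 1, was also the mouse with the highest hair follicle keratins given above, while control mouse 2, the next highest in those keratins, had the lowest Gsdma3 of the controls. Their part in it was not tested. Gsdma2 (chromosome 11, 98508073 to 98519278, plus strand) was at 0.718, 0.0868 and 0.203 FPKM across the controls and at 1.18, 0.194 and 0.530 FPKM across the JunBΔep mice, a log2 fold change of 0.42 (SE 0.42, limma adjusted p = 0.742) that came to 0.09 without the library labelled JunBΔep 0. Its groups overlapped.

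The 3 gasdermin A genes lie next to each other in the order Gsdma3, Gsdma2 and Gsdma. Their coding sequences were 85% to 89.8% identical, and 5.25% to 10.1% of their 50-base transcript windows occurred in another gene. Summed, they were at 29.6, 23.9 and 44.4 FPKM across the controls and at 80.8, 66.1 and 26.9 FPKM across the JunBΔep mice (log2 difference 0.72, exact permutation p = 0.3). The difference was 0.41 without the library labelled JunBΔep 0 and 1.20 without JunBΔep mouse 2. Gsdma alone made up 85.2% to 96.9% of that sum.

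**Figure D2:**
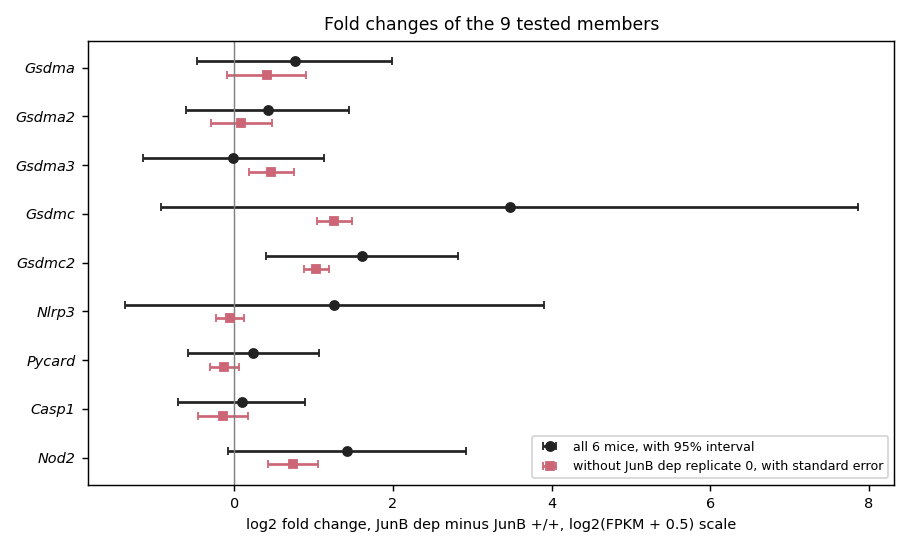
Log2 fold changes (JunB dep minus JunB +/+, log2(FPKM + 0.5) scale) of the 9 tested members over all 6 mice (black, with the 95% interval from limma) and without JunB dep replicate 0 (red, with the SE). Nlrp3 moves from 1.26 to -0.06 when the 1 library is left out.

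Of the NLRP3 inflammasome, the adaptor and the protease were well expressed in both groups, and the sensor was not. Nlrp3 (chromosome 11, 59355070 to 59380458, plus strand) was at 0.212, 0.282 and 0.153 FPKM across the controls and at 10.2, 0.120 and 0.255 FPKM across the JunBΔep mice. JunBΔep mouse 1 held the lowest value of the 6 mice, JunBΔep mouse 2 lay within the controls, and the library labelled JunBΔep 0 was at 36.1 times the highest control. The log2 fold change was 1.26 (SE 1.08, 95% interval -1.38 to 3.90, limma adjusted p = 0.723), and -0.06 (SE 0.18) without that library. Neutrophils, monocytes and macrophages are known to carry NLRP3, and the summed markers of both lists were highest in that library, as were 6 of 11 neutrophil and 6 of 9 monocyte and macrophage markers one by one. The 11 neutrophil markers summed to 629.6 FPKM there, to 477.6 FPKM in control mouse 0 and to 8.29 to 184 FPKM in the other 4 mice. Different markers carried the 2 high sums. Retnlg, a gene of mature neutrophils, reached 418 FPKM in that JunBΔep library against 18.6 FPKM in control mouse 0, while Ngp, a granule gene of neutrophil precursors, stood at 21.6 and 195.5 FPKM in the same order. The 9 monocyte and macrophage markers summed to 870.2 FPKM there, of which Lyz2 gave 556.7 FPKM, and to 96.3 to 493 FPKM in the other 5. Their part in the level of Nlrp3 was not tested.

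Pycard (chromosome 7, 135135617 to 135137381, minus strand) was at 42.2, 47.9 and 35.6 FPKM across the controls and at 81.9, 35.3 and 40.9 FPKM across the JunBΔep mice. JunBΔep mouse 1 lay just below the controls, JunBΔep mouse 2 among them, and the library labelled JunBΔep 0 above them. The log2 fold change was 0.24 (SE 0.34, 95% interval -0.59 to 1.06, limma adjusted p = 0.812), and -0.13 without that library. Casp1 (chromosome 9, 5298517 to 5307265, plus strand) was at 27.2, 28.7 and 16.8 FPKM across the controls and at 35.1, 17.4 and 26.1 FPKM across the JunBΔep mice. With means of 24.3 ± 6.51 and 26.2 ± 8.84 FPKM (SD, n = 3 each), its groups differed by less than their spread, and its log2 fold change was 0.09 (SE 0.33, 95% interval -0.71 to 0.89, limma adjusted p = 0.932). That interval spans changes in both directions, and the value was -0.15 without the library labelled JunBΔep 0. Nlrp3, Pycard and Casp1 summed to 69.7, 76.9 and 52.5 FPKM across the controls and to 127.1, 52.8 and 67.3 FPKM across the JunBΔep mice (log2 difference 0.23, exact permutation p = 0.8, and -0.14 without the library labelled JunBΔep 0), with Nlrp3 giving 0.228% to 0.38% of the sum outside the library labelled JunBΔep 0 and 7.99% in it.

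Nod2 (chromosome 8, 91171214 to 91212373, plus strand) was at 3.30, 2.61 and 2.64 FPKM across the controls and at 22.4, 3.62 and 7.05 FPKM across the JunBΔep mice. The JunBΔep mice were above every control, but JunBΔep mouse 1 by a factor of no more than 1.10 over the highest control. JunBΔep mouse 2 was at 2.14 times the highest control and the library labelled JunBΔep 0 at 6.79 times. The log2 fold change was 1.42 (SE 0.62, 95% interval -0.08 to 2.92, limma adjusted p = 0.681), with an exact permutation p of 0.1. It was 0.74 (SE 0.32, limma adjusted p = 0.679) without the library labelled JunBΔep 0, where the mean of the other 2 JunBΔep mice, 5.34 FPKM, was 1.87 times the control mean. The summed monocyte and macrophage markers (such cells are known to carry NOD2) were at 493, 237.5 and 283 FPKM across the controls and at 870.2, 96.3 and 244 FPKM across the JunBΔep mice, in the same order as Nod2 among the JunBΔep mice and with control mouse 0 above JunBΔep mouse 2, and their part in the level of Nod2 was not tested. Myd88, the adaptor of Toll-like and IL-1 receptors, was at 24.5, 23.7 and 21.3 FPKM across the controls and at 82.1, 22.4 and 30.1 FPKM across the JunBΔep mice (log2 fold change 0.71, limma adjusted p = 0.722, and 0.17 without the library labelled JunBΔep 0).

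The sample names fall into 2 number series, with control mice 0 and 1 and JunBΔep mouse 0 in the first and control mouse 2 and JunBΔep mice 1 and 2 in the second. What the series stand for is not given in the labels, and the first holds JunBΔep mouse 0 as its sole JunBΔep library. Within the second, the log2 difference between JunBΔep and control was 1.27 for Gsdmc, 1.07 for Gsdmc2 and 0.83 for Nod2, against 7.88, 2.75 and 2.74 within the first. For Gsdma the difference was 1.75 within the first and -0.16 within the second. For Nlrp3 it was 3.84 within the first and 0.07 within the second. In the same order it was 0.32 and 0.34 for Casp1, 0.86 and 0.09 for Pycard, -1.04 and 0.59 for Gsdma3 and 0.99 and 0.27 for Gsdma2. A fit with the number series as a term gave adjusted p values of 0.466, 0.215 and 0.413 from limma for Gsdmc, Gsdmc2 and Nod2. Its log2 fold changes were 0.33 (SE 0.22) for Casp1, 0.48 for Pycard and -0.22 for Gsdma3. Without the term they were 0.09, 0.24 and -0.01.

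**Figure D3:**
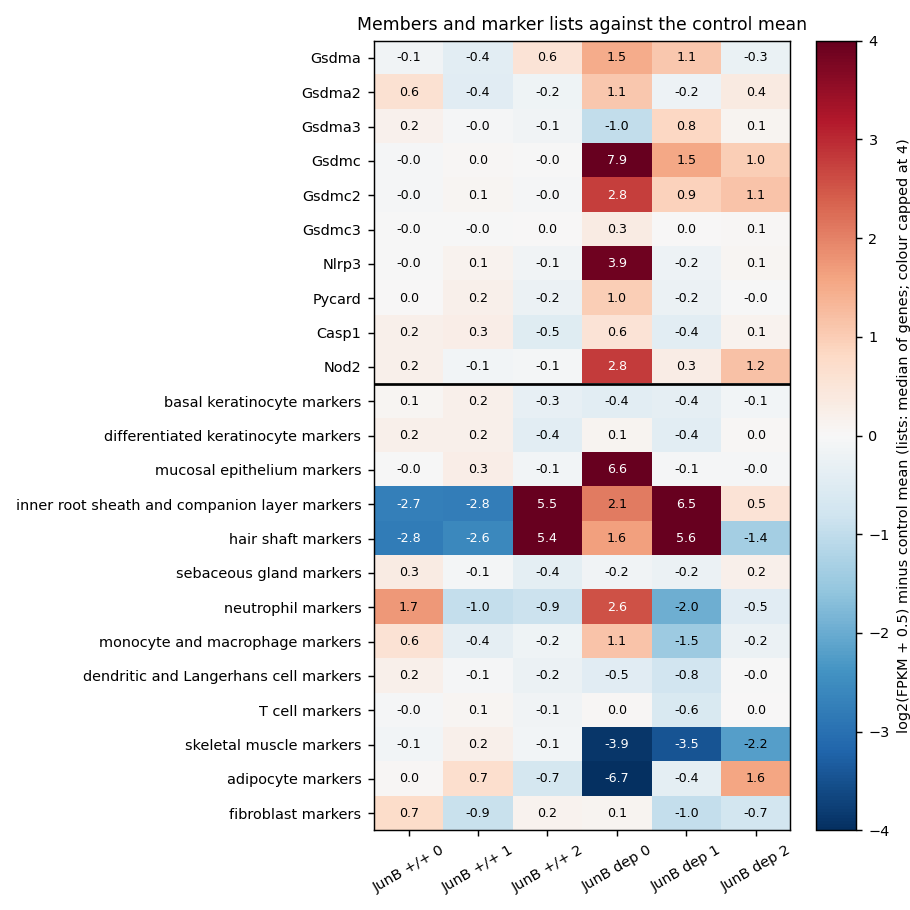
Log2(FPKM + 0.5) of each of the 10 genes (upper rows) and the median of each of 13 lists of cell type markers (lower rows) in each mouse, minus the mean of the 3 controls, with colour capped at 4. The mucosal list stands at 6.6 in JunB dep replicate 0 alone, both hair follicle lists stand above 5 in JunB +/+ replicate 2 and JunB dep replicate 1, and skeletal muscle is low in all 3 JunB dep mice.

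Around the 10 members, 72 further genes of the pathway were listed in 6 groups, and 62 of them were tested. Of the 62, 0 had an adjusted p below 0.05 and 0 an unadjusted p below 0.05 in limma. Fold changes were positive for 29 and negative for 33. The JunBΔep mice were above all controls for 4 of them (Tnfaip3, Nlrx1, Tab3 and Il1a), against the same 5.62% of all genes, and below all controls for 0, against 9.16%. The median log2 fold change over all genes tested was 0.03.

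Outside the A and C clusters, the gasdermins had overlapping groups. Gsdmd, the gasdermin that caspase-1 cuts, was at 13.6, 10.6 and 7.63 FPKM across the controls and at 13.0, 5.64 and 12.9 FPKM across the JunBΔep mice, a log2 fold change of -0.06 (SE 0.39, limma adjusted p = 0.960). Dfna5, which encodes gasdermin E, was between 1.03 and 2.27 FPKM in the 6 mice, and its log2 fold change was -0.07. The library labelled JunBΔep 0 left out, these were -0.25 and -0.34. Their median was -0.07 over all mice and -0.30 without that library. Dfnb59, which encodes pejvakin, was under 0.1 FPKM in each mouse and was not tested.

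Of 10 genes for proteases that cut gasdermins and for membrane rupture, 5 were positive and 5 negative (median 0.08, and 0.06 without that library). Casp4, the sensor of intracellular lipopolysaccharide, was at 14.03, 19.4 and 8.64 FPKM across the controls and at 33.4, 10.7 and 24.4 FPKM across the JunBΔep mice. Ninj1, which breaks the plasma membrane after the pore has formed, was the most abundant gene of the group, at 30.3 to 43.3 FPKM in controls against 23.2 to 56.0 FPKM in the JunBΔep group. For both genes the groups overlapped.

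Of 12 tested genes for other inflammasome sensors, 5 were positive and 7 negative (median -0.04, and -0.18 without the library labelled JunBΔep 0). Nlrp10, a keratinocyte NLR, was by far the most abundant, at 22.5, 19.1 and 14.4 FPKM across the controls and at 25.6, 11.02 and 14.3 FPKM across the JunBΔep mice. It therefore stood well above Nlrp3 per length in each mouse. Aim2, the sensor of cytosolic DNA, was at 2.30, 1.90 and 1.59 FPKM across the controls and at 12.9, 2.01 and 2.19 FPKM across the JunBΔep mice, which put 1 library apart and the other 2 within the controls. Nlrp1a was at 1.44 to 4.21 FPKM in controls against 2.29 to 3.63 FPKM in the JunBΔep group.

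Of 11 tested regulators of NLRP3, 3 were positive and 8 negative (median -0.10, and -0.07 without the library labelled JunBΔep 0). Txnip, an oxidant-responsive protein that can bind NLRP3, was the most abundant, at 263, 444 and 251 FPKM across the controls and at 47.9, 251 and 744 FPKM across the JunBΔep mice, so that the JunBΔep mice spanned the controls on both sides. Nek7, the kinase that NLRP3 needs to assemble, was at 16.4 to 19.9 FPKM in controls against 13.5 to 19.2 FPKM in the JunBΔep group. Brcc3, the deubiquitinase of NLRP3, was at 14.03 to 16.6 FPKM in controls against 13.0 to 16.1 FPKM in the JunBΔep group. Trim31, untested, was listed at 0 in the 3 controls and at 0.00897 to 0.0106 FPKM in the JunBΔep mice.

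Of 15 genes of NOD signalling, 8 were positive and 7 negative, with a median of 0.05, and 0.12 without the library labelled JunBΔep 0. In 3 of them the JunBΔep mice lay above all controls (5.62% of all genes), each time by a narrow gap, and in 0 below (9.16%). Tnfaip3, which encodes the NF-κB inhibitor A20, was at 6.62, 5.27 and 5.42 FPKM across the controls and at 20.7, 6.65 and 9.25 FPKM across the JunBΔep mice (log2 fold change 0.87, SE 0.42, limma adjusted p = 0.719, and 0.42 without the library labelled JunBΔep 0). The order of the JunBΔep mice was the same as for Nod2, and the lowest of them again lay just above the highest control. Nlrx1, a mitochondrial NLR, was at 7.998, 8.014 and 8.74 FPKM across the controls and at 19.5, 10.3 and 9.04 FPKM across the JunBΔep mice. Tab3, a partner of the kinase TAK1, was at 2.45 to 2.64 FPKM in controls against 2.77 to 3.21 FPKM in the JunBΔep group. Nod1, the sister receptor of Nod2, was at 23.3, 17.5 and 16.5 FPKM across the controls and at 13.0, 15.9 and 23.9 FPKM across the JunBΔep mice, and its log2 fold change was -0.14 with the library labelled JunBΔep 0 and 0.05 without it. Nod1 thus stood above Nod2 in each mouse except the library labelled JunBΔep 0. Tab2 and Erbb2ip (the NOD2-binding protein erbin), the other abundant genes of the group, were at 24.3 to 29.1 and 10.03 to 17.9 FPKM over the 6 mice.

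The cytokines that caspase-1 matures, their relatives and their receptors leaned on the same library. Of 12 genes, 8 were positive and 4 negative with a median of 0.31, and the library labelled JunBΔep 0 was the highest of the 6 mice for 9 of the 12. Without it the median was -0.30. Il1b was at 3.37, 3.30 and 2.73 FPKM across the controls and at 406.2, 1.28 and 2.59 FPKM across the JunBΔep mice (log2 fold change 1.85, SE 2.02, limma adjusted p = 0.761, and -0.63 without that library). It was below every control in JunBΔep mice 1 and 2. Il1a, which needs no caspase-1, was at 5.25, 3.80 and 5.02 FPKM across the controls and at 40.7, 7.16 and 9.57 FPKM across the JunBΔep mice, above every control in all 3 (log2 fold change 1.52, SE 0.64, limma adjusted p = 0.673, and 0.77 without that library). Il1r2, the decoy receptor, was the most abundant gene of the group in controls, at 61.8 to 92.4 FPKM, and at 33.2 to 68.6 FPKM in JunBΔep mice. Il1rn, the receptor antagonist, was at 23.8 to 32.9 FPKM in controls and at 143.4, 24.8 and 24.5 FPKM across the JunBΔep mice. Il18 was at 35.2 to 52.7 FPKM in controls against 29.2 to 38.8 FPKM in the JunBΔep group.

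**Figure D4:**
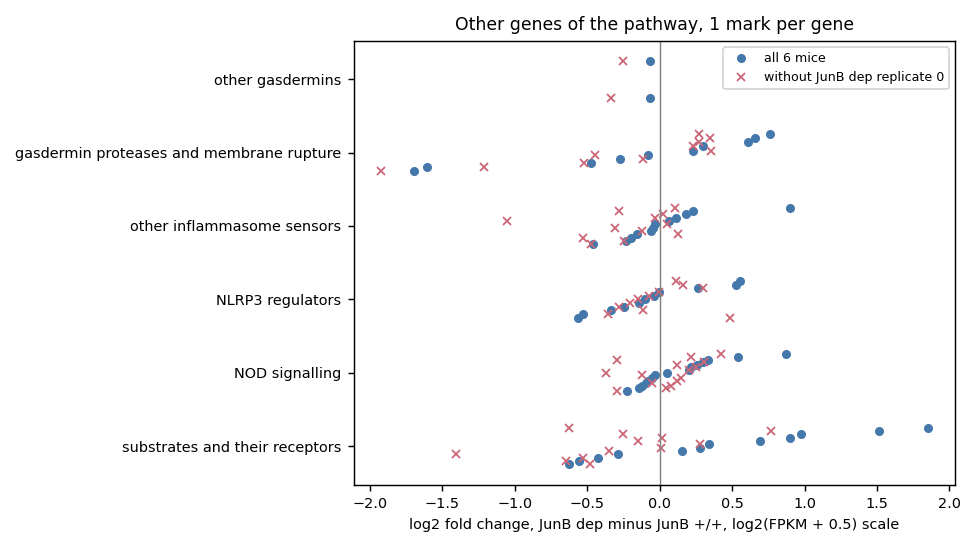
Log2 fold changes (JunB dep minus JunB +/+, log2(FPKM + 0.5) scale) of the 62 tested genes of the 6 pathway groups, 1 mark per gene, over all 6 mice (blue circles) and without JunB dep replicate 0 (red crosses). The groups scatter around 0, and the substrates and their receptors shift from a median of 0.31 to -0.30 when the 1 library is left out.

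For each member averaging 1 FPKM or more, the genes with the most alike profile over the 6 mice were found among 13735 genes, by the root mean square difference of log2(FPKM + 0.5) after centring. Ovol1, a transcription factor of epidermal differentiation, was nearest to Gsdma, with a difference of 0.0786, at 22.4, 17.8 and 32.0 FPKM across the controls and 67.1, 55.5 and 20.3 FPKM across the JunBΔep mice, followed by Cad (0.0902) and Kpna2 (0.132). Nearest to Gsdma3 were Fgfr2 (0.111), Srgap1 (0.112) and Plekhg3 (0.142). Gsdmc had no close match, the nearest being the cornified envelope gene Lce3f (0.321), the protease gene Klk14 (0.437) and Spink12 (0.445), which were at 153.5 to 223.7 FPKM in the library labelled JunBΔep 0 and at 2.60 FPKM or less in the others. The genes nearest to Nlrp3, Prl2c5 (0.119), Glycam1 (0.142) and Gm10872 (0.144), likewise stood out in that library alone. Pycard was nearest to Slc39a1 (0.068) and Rnh1 (0.0726), and Casp1 to Sdcbp2 (0.0446), 2810047C21Rik1 (0.0816) and Acap1 (0.0819). Nearest to Nod2 was Nfkbiz (0.0995), which encodes the nuclear inhibitor of NF-κB IκBζ, at 11.5, 9.90 and 10.5 FPKM across the controls and at 65.0, 13.1 and 22.2 FPKM across the JunBΔep mice, then Eno1 (0.14) and Ptges (0.163). Likeness over 6 mice is a description, and the mice share their libraries between all genes.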

How the data were processed

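Whole skin RNA of 3 control and 3 JunBΔep mice was measured as poly(A), strand-specific RNA sequencing libraries. The authors checked reads with FastQC, aligned them to mm9 with TopHat 2.0.10 and Bowtie 1.0.0 (SAMtools 0.1.19) within nextpresso, using the iGenomes annotation and allowing multiple hits, and deposited 1 table of FPKM values per gene and mouse. The submitters' processing notes also name Cufflinks, without a role. Which tool computed the FPKM is not stated in those sources, and read counts were not analysed here, so the depth is unknown and no counting interval is given. The authors' own test was on counts.

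From the deposited FPKM values, log2(FPKM + 0.5) was fitted by genotype with limma 3.58.1 in R 4.3.3 (intensity trend, no block, two-sided) over genes averaging 0.1 FPKM or more. P-values were adjusted by Benjamini-Hochberg over all of these genes, and genes under 0.05 were called. Fold changes on this scale understate changes of low genes. Single values and sums were compared by exact two-sided permutation over the 6 mice. Sequence matching, tables and plots used Python 3.11.15 with pandas 2.3.3 and matplotlib 3.10.9, and gene positions are from GENCODE annotation of mm9. The fit was also run on simulated data, and no outcome of that run is given here, so no support is drawn from it. 0 columns were left unused.

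The members and the lists were chosen with earlier results of these data known. Named were the members, Junb, Myd88, from each pathway list the genes called, those whose groups do not overlap and the 3 most abundant, and for each tested member averaging 1 FPKM or more the 3 nearest profiles. Il18, Krt14, Krt5, Xist, Lyz2, Retnlg, Ngp, the other gasdermin C copies and the neighbouring genes were named in addition, after their values were seen. So were Krt6b, Krt15, Krt75, Krt78, Krt85, Col17a1, Trp63, Itga6 and Cd74. Some genes that the rule names are not reported here. Same-numbered mice deviated from their group means with correlations of 0.12, -0.23 and -0.43, so the numbers were not taken as pairs.

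Alternatives were a pseudocount of 0.1 or 1, all genes kept, genes averaging 1 FPKM or more, median-ratio, sum and quantile scaling, no trend, robust limma, a replicate block, the sample-number series as a term, each mouse left out, an adjusted p of 0.1 and, chosen after seeing the data, the count of groups that do not overlap with each mouse left out, which dropping a mouse can only keep or raise and which is therefore not given.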

Additional observations from a re-analysis of the deposited data

How the results depend on the processing

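The number of members called was 0 in each setting, and so was that of the pathway genes. The number of all genes called, 235, was 0 with a replicate block and 0 with the number series as a term, from 0 to 254 with each mouse left out (135 without JunBΔep mouse 0, 10 of those higher, and 0 when any control or JunBΔep mouse 1 was dropped), and 166 to 247 in the other fits at the same threshold. With the replicate block the adjusted p of Gsdmc2 was 0.623, and the block changed no call of a member. Gsdma, Gsdma2, Gsdmc, Gsdmc2 and Nod2 kept a positive log2 fold change in each alternative run, with ranges of 0.40 to 1.28, 0.09 to 0.79, 1.26 to 4.91, 1.03 to 2.99 and 0.74 to 1.98. Over these alternatives the limma adjusted p was 0.108 to 0.957 for Gsdmc, 0.078 to 0.957 for Gsdmc2 and 0.342 to 0.957 for Nod2. The sign turned for 4 genes near 0 or high in 1 library. Gsdma3 was at 0.0077 with a pseudocount of 1 and at 0.078 after quantile normalization, and ranged from -0.44 to 0.47 with mice left out (0.07 without control mouse 0, 0.47 without JunBΔep mouse 0). With mice left out, Casp1 ranged from -0.15 to 0.35 (-0.15 without control mouse 2 and -0.15 without JunBΔep mouse 0), Nlrp3 from -0.0595 to 1.99 and Pycard from -0.13 to 0.47, the lowest of both without JunBΔep mouse 0. The filter at 1 FPKM dropped Gsdma2 and Gsdmc2 as well as Gsdmc3. The read totals are unknown, so how far counting error limits Gsdmc3 and the control levels of Gsdmc and Gsdmc2 is unknown.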

Other observations

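The genes beside the gasdermin clusters were read from the same fit. Csf3, which encodes the neutrophil growth factor G-CSF and lies past Gsdma on chromosome 11 (98562577 to 98564943), was at 0.0338, 0.0354 and 0.0621 FPKM across the controls and at 63.9, 0.0148 and 0.123 FPKM across the JunBΔep mice. It was thus near silent in 5 mice and expressed in the library labelled JunBΔep 0, with a log2 fold change of 2.33 (limma adjusted p = 0.722), and without it the gene falls under the filter. Ormdl3, on the other side of the gasdermin A cluster, was at 58.6, 83.3 and 58.7 FPKM across the controls and at 37.1, 81.4 and 133.1 FPKM across the JunBΔep mice, the reverse order of Gsdma in the JunBΔep mice. The proteasome gene Psmd3, next to Gsdma, had a log2 fold change of 0.12 (0.15 without that library) and a narrow range, from 65.9 to 85.5 FPKM. Beside the gasdermin C cluster on chromosome 15, Fam49b and Asap1 had log2 fold changes of 0.16 and 0.21, and both were highest in the library labelled JunBΔep 0, at 15.3 and 14.3 FPKM, and without it the values were -0.25 and -0.16.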
